A study of Mus musculus with 12 samples.

Results

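The genes described here are those of the corticotroph, the pituitary cell that makes adrenocorticotrophic hormone (ACTH), and of the receptors through which corticosteroids act. They are Pomc, Tbx19, Neurod1, Crhr1, Avpr1b, Crhbp, Nr3c1 and Nr3c2. They were selected by gene symbol, not by the cells that expressed them in these glands. The bead array annotation gave 12 probes to these 8 genes out of 45281 probes, all under the current symbols. A probe was kept where its signal was above the negative control beads (detection p-value below 0.05) on at least 4 of the 12 arrays. This left 6 member probes, 1 for each of 6 genes, among 18626 kept probes that covered 10802 named genes. The probes of Avpr1b and Nr3c1 did not pass, and both genes are described below by their detection alone.

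Whole pituitaries were collected from C57BL/6J female mice, a common inbred laboratory strain, and each array held the RNA of 1 gland. The 8 pregnant females had been mated with males of the same strain and were killed at e15.5, and the 4 non-pregnant females were virgins. The females came from 4 litters and were 8 weeks old when allocated to the groups, but which female came from which litter was not stated. By the paper's account the glands were taken at a later age than this. The gland holds an anterior, an intermediate and a posterior lobe, so a level is an average over many cell types, and fewer cells of a type cannot be told apart from less RNA in each cell.

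Corticotrophs are the pituitary arm of the stress axis. Corticotrophin-releasing hormone (CRH) and vasopressin from the hypothalamus act on CRHR1 and AVPR1B at the corticotroph surface and release ACTH, which is cut from the precursor protein encoded by Pomc. ACTH drives the adrenal cortex to make corticosteroids, and these bind the glucocorticoid receptor (Nr3c1) and the mineralocorticoid receptor (Nr3c2), of which the first represses Pomc and closes the feedback loop. Melanotrophs of the intermediate lobe also express Pomc and Tbx19, and cut the precursor to melanocyte-stimulating hormone.

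The promoters of Pomc, whose probe was the brightest of these genes, and of Crhbp, which differed most between glands, are shown as background. No result below rests on them. Promoter windows ran from 250 bases before the transcription start to 50 after it and were taken from RefSeq on GRCm38.p6, which matched 6 of the 8 genes and not Avpr1b or Nr3c1. Both are printed on the strand of the gene. Capitals mark E-boxes (CANNTG, the site of basic helix-loop-helix factors such as NEUROD1) and, in Crhbp, a cAMP response half-site (TGACG, here on the opposite strand).
Pomc, chr12:3954695-3954994, plus strand: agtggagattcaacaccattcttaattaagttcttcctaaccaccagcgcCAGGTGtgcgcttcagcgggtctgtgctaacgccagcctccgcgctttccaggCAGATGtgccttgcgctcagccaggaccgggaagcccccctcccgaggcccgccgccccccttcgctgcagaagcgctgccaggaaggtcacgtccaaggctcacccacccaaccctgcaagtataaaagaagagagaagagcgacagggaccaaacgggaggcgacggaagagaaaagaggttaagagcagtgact
Crhbp, chr13:95444782-95445081, minus strand: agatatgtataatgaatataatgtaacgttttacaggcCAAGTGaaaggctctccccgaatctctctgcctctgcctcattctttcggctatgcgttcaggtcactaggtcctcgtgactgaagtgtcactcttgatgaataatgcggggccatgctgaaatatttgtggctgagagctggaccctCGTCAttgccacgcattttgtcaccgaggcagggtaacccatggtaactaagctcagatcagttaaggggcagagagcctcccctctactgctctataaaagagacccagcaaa

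The Pomc window held 2 E-boxes, that of Tbx19 held 2, those of Neurod1, Nr3c2 and Crhbp held 1 each, and that of Crhr1 held none of the motifs searched. An E-box was present in 72.3% of all 32851 promoter windows of this length, so its presence says little about any gene. The cAMP response half-site, bound by CREB, was found in the Crhbp window only, among the 6, and in 20.8% of all windows. No match in the 6 windows was found for the T-box half-site TCACACC (3.98% of all windows), the corticosteroid receptor half-site TGTTCT (19%), the bicoid site TAATCC (7.06%) or the Nr4a monomer site AAAGGTCA (1.51%). All motifs were searched on both strands, within these windows only, so sites further upstream were not seen. The Pomc window had a GC content of 59% and that of Crhbp 48%, against a mean of 53.8% over all windows.

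**Figure D1:**
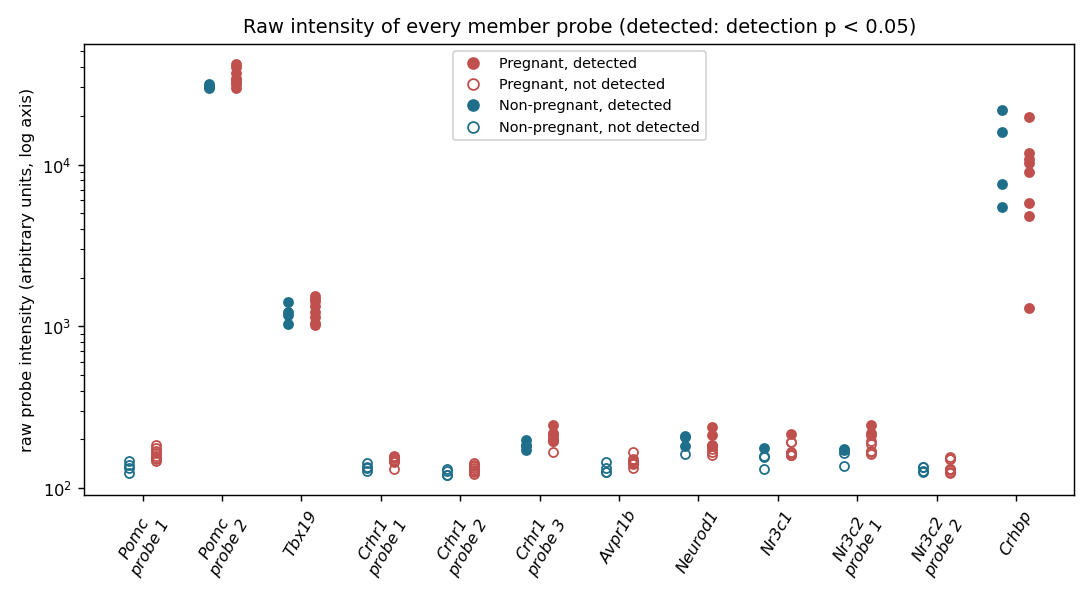
Raw intensity (log axis) of each of the 12 member probes, with a point for each array (8 pregnant, 4 non-pregnant). Filled points had a detection p-value below 0.05 and open points did not. Pomc, Tbx19 and Crhbp each had a probe detected on every array, whereas the probe of Avpr1b was detected on none.

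Between 17217 and 18572 probes were detected per array (38.0% to 41.0%). Median raw intensity was higher on the pregnant arrays (151.1 to 179.6) than on the non-pregnant arrays (144.8 to 147.6), and background correction and quantile normalisation were applied before any comparison. Of the corticotroph markers, 4 of 5 were measured, and the exception was Avpr1b. On the first principal component non-pregnant replicate 4 (0.25) lay among the pregnant arrays (-7.29 to 20.6) and away from the other 3 non-pregnant arrays (-32.8 to -21.3). Red cell markers were called higher in 5 of 5, with summed intensities of 87363 to 131746 in pregnant glands and 33262 to 42331 in non-pregnant glands. The gonadotroph marker Lhb was called lower, and none of the other marker lists, posterior lobe and melanotroph included, held a called gene. The part of these differences in the results was not tested.

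Differences are given as log2 change (pregnant minus non-pregnant) with its standard error (SE), and a probe was called at a limma adjusted p below 0.05 and a higher group mean at least 25% above the lower. No member gene was called in either direction, where 2.31% of all kept probes were (227 or 1.22% higher, and 204 or 1.10% lower). These counts over all kept probes were 536 higher and 597 lower without non-pregnant replicate 4, 89 and 59 without non-pregnant replicate 3, and 113 and 70 without non-pregnant replicate 1, and no member was called in any of them. Limma gave an unadjusted p below 0.05 for 1 of the 6 genes, Neurod1, against 17% of all kept probes, and an exact permutation test over arrays gave none. The log2 change was below 0 for 5 genes and above 0 for 1, with a median of -0.07 against -0.01 over all named genes. In none of the 6 did the values of the pregnant and non-pregnant arrays lie fully apart, as they did for 2.95% of all kept probes. The number of arrays limited the precision, so each change is given with its 95% interval.

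**Figure D2:**
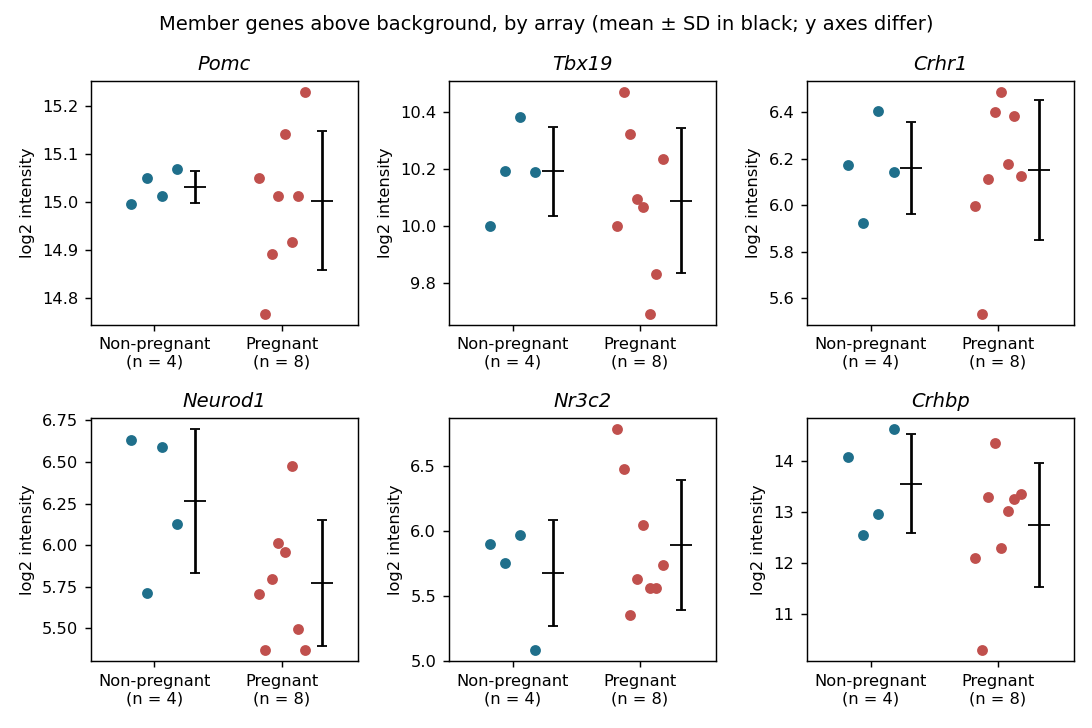
Normalised log2 intensity of the 6 member genes with a kept probe, 1 point per gland (8 pregnant, 4 non-pregnant), with the group mean and SD. The groups overlap in every panel, and Crhbp has the widest range, from 10.28 to 14.63.

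Pomc encodes the precursor of ACTH, melanocyte-stimulating hormone and beta-endorphin, and its probe was brighter than 99.8% of kept probes on average. The raw intensity was 29528 to 41538, which was 58.8% to 84.2% of the brightest probe on the same array, a range in which bead arrays can compress differences. On the normalised log2 scale the non-pregnant glands gave 15.00, 15.05, 15.01 and 15.07, and the pregnant glands ran from 14.77 through a median of 15.01 to 15.23. The 4 non-pregnant values lay inside the range of the pregnant ones. The mean was 15.00 ± 0.15 (SD, n = 8) with pregnancy and 15.03 ± 0.03 (SD, n = 4) without it. The log2 change was -0.03 ± 0.10 (SE; limma adjusted p = 0.911), and its 95% interval corresponded to a fold of 0.851 to 1.13. The pooled SD between glands of a group was 0.12, and only 9.11% of kept probes varied less. A further Pomc probe was not well above background on any array. Melanotrophs contribute to the Pomc signal of a whole gland. Of 5 melanotroph markers 3 were measured and none was called, with log2 changes of 0.41 (Oacyl), -0.21 (Drd2) and 0.11 (Pkib). Their summed intensity was 1703 to 2264 in pregnant and 2043 to 2325 in non-pregnant glands. The paper places the D2 dopamine receptor, encoded by Drd2, on lactotrophs, so this sum is not specific to melanotrophs. The defining melanotroph factor Pax7 was not well above background on any array.

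Tbx19, the T-box factor that switches on Pomc in corticotrophs and melanotrophs, was detected on all 12 arrays. The non-pregnant glands gave normalised log2 intensities of 10.00, 10.19, 10.38 and 10.19, and the pregnant glands ran from 9.69 through a median of 10.08 to 10.47. Both the highest and the lowest gland were pregnant. The log2 change was -0.10 ± 0.14 (SE; limma adjusted p = 0.755), with a 95% interval of 0.762 to 1.14 in fold. Its pooled SD of 0.23 was close to the median of 0.22 over all kept probes.

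Neurod1, a basic helix-loop-helix factor that acts with TBX19 on Pomc in differentiating corticotrophs, was dim. Its probe was detected on 3 of 8 pregnant and 3 of 4 non-pregnant arrays. Normalised log2 intensity was 6.63, 5.71, 6.59 and 6.13 in the non-pregnant glands, and ran from 5.37 through a median of 5.75 to 6.47 in the pregnant glands. Of the members it had the lowest p, and 2 of the 4 non-pregnant glands lay above every pregnant one. The log2 change was -0.49 ± 0.21 (SE), 1.41-fold lower in pregnancy, with a limma p of 0.0328 that did not hold after adjustment over all kept probes (adjusted p = 0.241). The exact permutation test over arrays gave p = 0.0727 (two-sided, adjusted over all kept probes 0.354). The 95% interval of the fold was 0.521 to 0.969. Several Neurod1 values lay at or under the dimmest detected signal of an array (log2 5.70 to 5.91), and without background correction the log2 change was -0.19.

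Crhr1, the receptor through which CRH stimulates cAMP in corticotrophs, had 3 probes, of which 1 was kept. That probe was detected on 7 of 8 pregnant and 4 of 4 non-pregnant arrays. Normalised log2 intensity was 6.17, 5.92, 6.41 and 6.15 in the non-pregnant glands, and ran from 5.53 through a median of 6.15 to 6.49 in the pregnant glands. The non-pregnant values fell within the pregnant range. The log2 change was -0.01 ± 0.16 (SE; limma adjusted p = 0.984), with a 95% interval of -0.34 to 0.32 on the log2 scale. The other 2 Crhr1 probes were detected on no array.

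Avpr1b, the vasopressin receptor of corticotrophs, was not well above background on any of the 12 arrays. Its raw intensity was 125.5 to 166.5, and its lowest detection p-value was 0.146. No fold is given, and with a single dim probe a change in this gene was not detectable here.

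**Figure D3:**
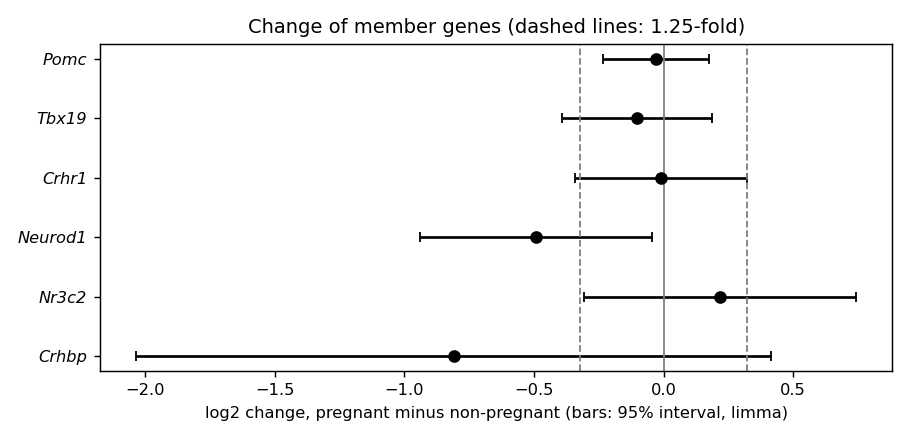
Log2 change (pregnant minus non-pregnant) of the 6 member genes with a kept probe, with the 95% interval from limma. The interval of Neurod1 runs from -0.94 to -0.05 and the other 5 cross 0, with that of Crhbp the widest (-2.04 to 0.42).

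Crhbp encodes the secreted CRH-binding protein, which captures CRH and so lowers the amount free to reach CRHR1. It was bright and varied more between glands than any other member. Which cells of the gland gave this signal was not measured. Normalised log2 intensity was 14.08, 12.54, 12.96 and 14.63 in the non-pregnant glands, and ran from 10.28 through a median of 13.13 to 14.35 in the pregnant glands. The lowest gland was pregnant replicate 2 and the highest non-pregnant replicate 4. The highest of all 12 glands was 20.4-fold above the lowest, with a range of 16.8-fold among pregnant and 4.26-fold among non-pregnant glands. The means were 12.74 ± 1.21 (SD, n = 8) and 13.55 ± 0.97 (SD, n = 4). The log2 change of -0.81 ± 0.58 (SE), 1.75-fold lower in pregnancy, was within this spread (limma adjusted p = 0.509), and the 95% interval ran from 0.244 to 1.33 in fold. Without pregnant replicate 2 the log2 change was -0.46, and without non-pregnant replicate 4 it was -0.45.

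The pooled SD of Crhbp, 1.15, ranked 9 among 18626 kept probes. The named genes around it in that order were immediate early genes (Fos, Egr3, Nr4a2, Atf3 and Fosb), the chemokine Ccl4 and the gonadotrophin subunit Fshb. After centring on the group means, no relation of Crhbp to any of these 7 genes was established across the 12 glands. Pearson's r lay between -0.44 for Fshb and 0.37 for Fosb (permutation test, lowest adjusted p = 0.593 over 8 relations). Against the number of probes detected per array, r was -0.04 (permutation adjusted p = 0.901) and Spearman's rho -0.01. Without pregnant replicate 2 and non-pregnant replicate 2, the glands farthest from the median of Crhbp, that r was -0.60.

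**Figure D4:**
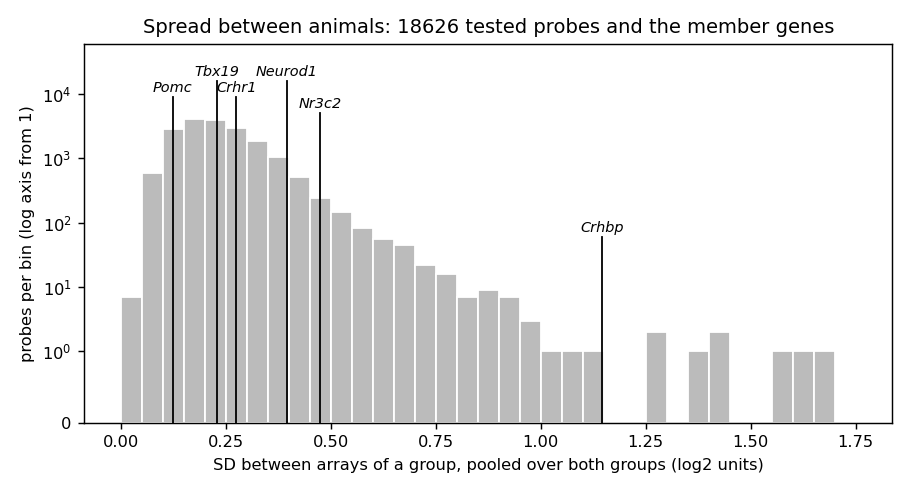
Distribution of the SD between arrays of a group, pooled over both groups (log2 units), over 18626 kept probes, with the number of probes per bin on a log axis above 1. Lines mark the members: Pomc (0.12) lies at the low end and Crhbp (1.15) at rank 9 from the top.

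Nr3c1, the glucocorticoid receptor, had 1 probe, which was above background on pregnant replicate 6 and non-pregnant replicate 4 only. Its raw intensity was 130.9 to 214.1, and it was not tested. These arrays therefore give no measure of the glucocorticoid receptor in either group.

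Nr3c2, the mineralocorticoid receptor, which binds corticosterone with high affinity, had 2 probes. One was detected on 3 of 8 pregnant and 2 of 4 non-pregnant arrays and the other on none. Normalised log2 intensity was 5.90, 5.75, 5.97 and 5.09 in the non-pregnant glands, and ran from 5.36 through a median of 5.69 to 6.79 in the pregnant glands. The groups overlapped, with the highest values in pregnant replicates 1 and 2 and the lowest in non-pregnant replicate 4. It was the only member with a log2 change above 0, at 0.22 ± 0.25 (SE; limma adjusted p = 0.71), and the 95% interval ran from 0.807 to 1.68 in fold. Without non-pregnant replicate 4 the log2 change was 0.02. The pooled SD of 0.47 exceeded that of 97.2% of kept probes, at a signal near background.

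Across the 12 glands, the 15 pairs among the 6 measured genes were compared after centring on the group means. The lowest p belonged to Nr3c2 and Crhbp, which ran in opposite directions (r = -0.72, permutation p = 0.0135, adjusted 0.202, and rho = -0.69, permutation p = 0.0223, adjusted 0.313). The r was -0.64 without pregnant replicates 1 and 2. Crhr1 and Crhbp ran together by Pearson's r (0.65, permutation p = 0.0434, adjusted 0.326) and less so by rank (rho = 0.41), with r = 0.48 without pregnant replicates 2 and 5. Pomc and its activator Tbx19 gave r = -0.20 (permutation adjusted p = 0.762) and rho = -0.21. No pair passed the adjustment, so no relation among the members was established.

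The genes whose group-centred pattern lay closest to each member, out of 16012 named probes over 12 arrays, are given as a description with no test. They were Ift74 (r = 0.94) and Dgke (0.89) for Pomc, and Tgfbi (0.91) and Tcea3 (0.86) for Tbx19. For Crhr1 they were Dnajc12 (0.94) and Zdhhc12 (0.92), and for Neurod1 Slc38a9 (0.87) and Zcchc18 (0.85). For Nr3c2 they were Sp3 (0.96) and Slc35f3 (0.93), and for Crhbp Ociad1 (0.93) and Tmbim1 (0.92). Next for Crhr1 came a probe of Lhx3 (0.92), a gene of the pathway lists below that was named here after its value was seen.

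The pathways around the members were described gene by gene with the same thresholds, where 3.07% of all named genes were called, 1.51% higher and 1.56% lower. A single called probe sufficed for its gene. Of 33 regulators of the POMC lineage 24 were measured, 0 were called higher and 2 lower, with a median log2 change of -0.06 against -0.01 for all genes.

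Lhx3, a LIM homeodomain factor needed for most pituitary cell types, fell in pregnancy by 2 of its 4 probes. On the first, normalised log2 intensity was 9.50 to 9.69 in pregnant and 9.84 to 10.14 in non-pregnant glands, with no overlap, and the log2 change was -0.42 ± 0.09 (limma adjusted p = 0.0220). The second gave -0.61 ± 0.15 (limma adjusted p = 0.0448), and the brightest gave -0.34 ± 0.11 without passing (limma adjusted p = 0.120). The second probe lost its call without any 1 of 9 arrays, and the first without non-pregnant replicate 2 (adjusted p = 0.0666) or 3 (adjusted p = 0.0580) in limma.

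Rasd1, a small G protein known as a dexamethasone-induced Ras, fell 1.79-fold. Its normalised log2 intensity was 7.00 to 7.92 in pregnant and 8.02 to 8.98 in non-pregnant glands, which did not overlap, and the log2 change was -0.84 ± 0.20 (limma adjusted p = 0.0375). Its call was lost without any 1 of 7 arrays, with a limma adjusted p of up to 0.145 without non-pregnant replicate 3, the highest of its group. The limma adjusted p was also 0.0600 with median scaling and 0.0799 with no detection filter. Insm1, a zinc finger factor of endocrine cells, and Sstr2, a somatostatin receptor, had log2 changes of -0.54 ± 0.14 and -1.04 ± 0.30 that did not pass (limma adjusted p = 0.0523 and 0.0792).

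**Figure D5:**
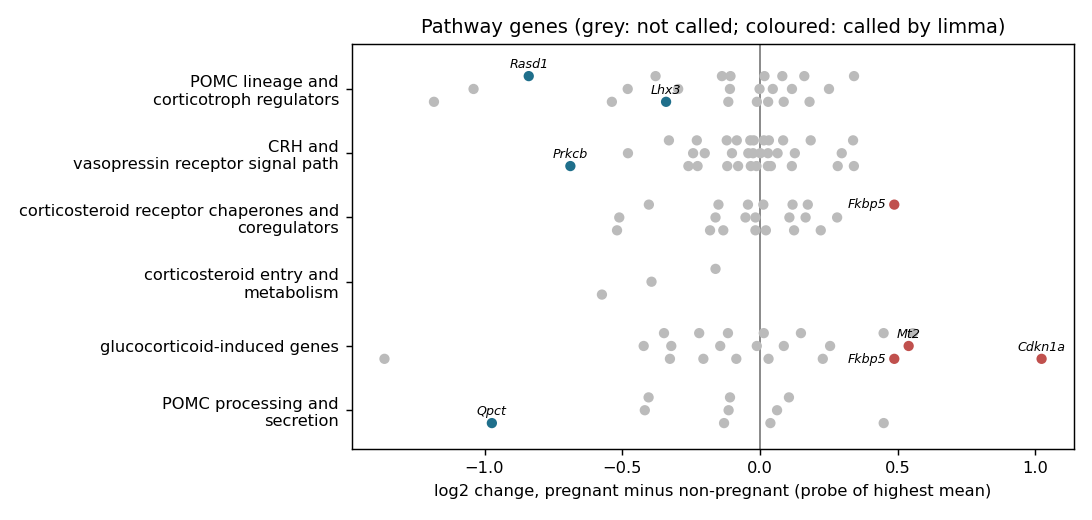
Log2 change (pregnant minus non-pregnant) of each measured gene of the 6 pathway lists, 1 point per gene at its probe of highest mean, with called genes coloured and named. Most genes lie near 0, and the called ones run from Qpct (-0.97) to Cdkn1a (1.02); Lhx3 is drawn at its brightest probe (-0.34) and was called by others.

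Of 45 genes on the path from the CRH and vasopressin receptors, 34 were measured, 0 were called higher and 1 lower, with a median log2 change of -0.02. The called gene was Prkcb, a protein kinase C on the branch that vasopressin uses, which fell 1.61-fold. Its normalised log2 intensity was 9.00 to 9.77 in pregnant and 9.81 to 10.23 in non-pregnant glands, and the log2 change was -0.69 ± 0.13 (limma adjusted p = 0.0146). Without non-pregnant replicate 1, the highest of its group, the limma adjusted p was 0.0688. The other 2 Prkcb probes gave -0.36 and -0.67 and did not pass. On the cAMP branch that CRH uses, the regulatory subunit Prkar2b gave 0.34 ± 0.10 (limma adjusted p = 0.0755). The kinases Prkca and Prkce gave -0.33 and 0.34, and neither passed.

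Of 29 chaperones and coregulators of the corticosteroid receptors, 21 were measured, 1 was called higher and 0 lower, with a median log2 change of -0.02. Fkbp5, a co-chaperone that holds the glucocorticoid receptor in a state of low affinity and is itself induced by glucocorticoids, rose 1.40-fold. Its normalised log2 intensity was 9.55 to 10.02 in pregnant and 9.24 to 9.49 in non-pregnant glands, with no overlap, and the log2 change was 0.49 ± 0.11 (limma adjusted p = 0.0294). The call was lost without any 1 of 5 arrays, with a limma adjusted p of up to 0.0834 without non-pregnant replicate 1. It was also lost with the replicate number as a block (limma adjusted p = 0.167). Dnajb1, Nrip1 and Stip1 gave log2 changes of -0.52, -0.51 and 0.28 and did not pass.

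Of 10 genes of corticosteroid entry and metabolism only 3 were measured, and none was called. Hsd11b1, which regenerates active corticosterone inside cells, gave -0.39 ± 0.10 on its brightest probe (limma adjusted p = 0.0615). The efflux pump gene Abcb1b gave -0.57 ± 0.19 (limma adjusted p = 0.120) and H6pd, which supplies the cofactor of HSD11B1, gave -0.16.

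Of 23 genes known to be induced by glucocorticoids 22 were measured, 3 were called higher and 0 lower, with a median log2 change of 0.00. The 3 were Fkbp5, the cell cycle inhibitor Cdkn1a and the metal-binding protein gene Mt2. Rasd1, described above as dexamethasone-induced, was placed in the POMC lineage list instead and was called lower. Cdkn1a rose 2.03-fold on its brightest probe (log2 change 1.02 ± 0.18, limma adjusted p = 0.00675), and its other 2 probes gave 0.70 and 0.60 and did not pass. Mt2 rose 1.45-fold (log2 change 0.54 ± 0.11, limma adjusted p = 0.0180), with normalised log2 intensities of 7.48 to 8.01 in pregnant and 7.18 to 7.40 in non-pregnant glands. Leaving out non-pregnant replicate 1 or 3 raised its limma adjusted p to 0.0614 or 0.0786, and without background correction its log2 change was 0.32, just under the 25% limit. Cebpd gave 0.45 ± 0.13 and did not pass (limma adjusted p = 0.0742). The metallothionein gene Mt1 gave -0.09, Tsc22d3 0.09, Sgk1 -0.22, Per1 -0.35, Klf9 -0.33 and Zbtb16 0.15, and none of these was called. Log2 changes were above 0 for 11 of the 22 genes and below 0 for the others. The change of greatest size in the list was that of Dusp1, a phosphatase of MAP kinases, at -1.36 ± 0.46, which did not pass (limma adjusted p = 0.135). Both Cdkn1a and Mt2 answer to other signals as well, and the glucocorticoid receptor itself was not measured.

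Of 12 genes of POMC processing and secretion 10 were measured, 0 were called higher and 1 lower, with a median log2 change of -0.11. Qpct, which closes an amino-terminal glutamine of some peptides into a ring, fell 1.96-fold. Its normalised log2 intensity was 8.85 to 9.39 in pregnant and 9.88 to 10.20 in non-pregnant glands, with no overlap (log2 change -0.97 ± 0.11, limma adjusted p = 0.000272). It had the lowest p of any gene of these lists. As substrates of its enzyme the paper names the releasing hormones of thyrotrophin and of gonadotrophins, and not POMC peptides. It also reports Qpct enriched in gonadotrophs of postnatal pituitaries. Whether the fall of Qpct bears on POMC was not tested. Cpe, the carboxypeptidase that trims peptides after cleavage, gave -0.42 ± 0.11 (limma adjusted p = 0.0658), the granin Scg2 gave -0.40 ± 0.12 (limma adjusted p = 0.0966) and Vgf gave 0.45 ± 0.23. Of the convertases that cut POMC, Pcsk1 was above background on at most 1 array and no probe was annotated to Pcsk2.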

How the data were processed

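Total RNA of 12 pituitaries was measured on MouseWG-6 v2.0 arrays. The authors deposited a non-normalised table of intensity per probe and array, with a detection p-value deposited beside each. A deposited table of processed intensity, which the methods describe as quantile normalised and variance stabilised with lumi (no version stated), is on a linear scale and was used as an alternative. Non-normalised intensities were background corrected with normexp (offset 16, with the negative controls' distribution inferred from detection p-values), quantile normalised and log2 transformed in limma 3.58.1 (R 4.3.3). Groups were compared with lmFit and eBayes, two-sided. The p-values were adjusted by Benjamini-Hochberg across every kept probe, and the procedure was tested on simulated data. Where a sentence gives ± without a label, it is the SE. Levels of different probes were set beside each other only as description, such as in brightness ranks and marker sums, with no test. Single genes were also compared by exact permutation of arrays.

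In the platform annotation, 34885 probes had 1 gene, 18 had several and 10378 had none, and 34807 were found in the RefSeq table of GRCm38.p6. The members and gene lists were chosen with earlier results of these data known. Named genes were all members with every kept probe, each called gene and up to 4 members of smallest p from each list, and the 2 most alike genes of each member. The genes of highest spread, the markers, Dusp1 and the untested list genes were named after their values were seen. So were Mt1, Tsc22d3, Sgk1, Per1, Klf9 and Zbtb16. The p-values treat animals as independent. Alternatives changed background correction, scaling, filter, weights, prior, replicate block and 1 array at a time.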

Additional observations from a re-analysis of the deposited data

Results flagged for a closer look

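Among 60 groups of values (30 probes in 2 groups), 3 held a gland far from the rest by Dixon's criterion, and chance gives about 1 in 20. No member gene was among them. The second Lhx3 probe was at log2 8.41 in pregnant replicate 2, against 8.98 to 9.47 in the other pregnant glands. Prkcb was at 10.23 in non-pregnant replicate 1, against 9.81 to 9.87 in the other non-pregnant glands. Scg2 was at 14.38 in non-pregnant replicate 2, against 14.05 to 14.09.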

How the results depend on the processing

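No member was called under any alternative. Log2 changes reversed to 0.017 for Pomc with median scaling, 0.029 for Tbx19 with the replicate block, and, without 1 array, 0.0049 for Pomc and 0.013, 0.072 and 0.080 for Crhr1; changes without 1 array ran from -0.061 to 0.0049 (Pomc), -0.17 to -0.04 (Tbx19), -0.68 to -0.37 (Neurod1), -0.089 to 0.080 (Crhr1), -1.15 to -0.45 (Crhbp) and 0.02 to 0.31 (Nr3c2). Over all probes, array weights called 742 higher and 834 lower, trended robust moderation 308 lower, and the replicate block 86 and 41. Same-numbered glands correlated by 0.16, 0.06, 0.01 and 0.20, so the numbers were not taken as pairs. Leaving out 1 array gave 89 to 536 higher and 59 to 597 lower, lowest without non-pregnant replicate 3 (without replicate 1, 113 and 70; 122 lower without pregnant replicate 7) and highest without non-pregnant replicate 4. Called list genes became, for the receptor path, 2 (no background correction, offset 50, the authors' table, trend), 3 (stricter filter), 6 (weights) and 0 (block); for chaperones 2 (no correction, authors' table, weights, trend) and 0 (block); for steroid entry 1 (no correction, offset 50, authors' table, stricter filter, trend) and 2 (weights); for POMC processing 3 (no correction, authors' table, trend) and 2 (offset 50, stricter filter, weights); for the POMC lineage 1 (median scaling, no filter, block) and 5 (weights); and for glucocorticoid-induced genes 6 (weights). Without 1 array these ran 1 to 3, 0 to 1, 0 to 2, 1 to 1, 0 to 4 and 1 to 5. Causes were not tested. Cdkn1a and Qpct were called in all 21 settings. The stricter filter left 12373 probes and dropped Crhr1, Neurod1 and Nr3c2, whose dim signal limits them. A slide block and the planned receptor differences (Nr3c1 and Avpr1b not measured) were not run.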
